A study of Mus musculus with 16 samples.

Results

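Rasgrp3, Cd28, Slco2b1, Gpr34 and St6gal1 are 5 genes whose transcripts nearly vanished from mouse bone marrow-derived macrophages treated with lipopolysaccharide (LPS). They were chosen by their measured response to it, from among the genes with the largest decreases in LPS against DMSO libraries apart from chemokine receptors. They are 5 of 56748 genes in the count table and 5 of 13438 that could be tested. All 5 passed the filter on low counts, which the libraries without LPS were enough to meet. The cells were grown from the marrow of 4 wild-type male C57BL6 mice in medium with L929 cell supernatant, and each mouse gave 1 library to each of 4 groups. The groups were SR9009 at 10 µM for 16 hours followed by LPS at 100 ng/mL for 6 hours, LPS at 100 ng/mL for 6 hours, SR9009 at 10 µM overnight (16 hours in the description of the series), and DMSO as the vehicle. LPS is a glycolipid of the outer membrane of Gram-negative bacteria and is sensed by Toll-like receptor 4, and SR9009 is a small molecule that activates REV-ERBα and REV-ERBβ, nuclear receptors that repress transcription within the circadian clock. The labels of the LPS libraries do not state whether DMSO was given before LPS, so a difference in vehicle cannot be told apart from the LPS and SR9009 differences that use them. The question was whether SR9009 changed the level of the 5 genes without LPS, or what was left of them after LPS.

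The products of the 5 genes have different places and tasks in the cell. Rasgrp3 encodes an exchange factor that is recruited to membranes by diacylglycerol and loads the small GTPases Ras and Rap with GTP. Cd28 encodes a costimulatory receptor best known on T cells, where it binds CD80 and CD86 on antigen-presenting cells. Gpr34 encodes a Gi-coupled receptor for lysophosphatidylserine that is abundant in microglia, the macrophages of the brain. Slco2b1 encodes an organic anion transporter that takes up steroid sulfates and thyroid hormones, and St6gal1 encodes the Golgi enzyme that adds α2,6-linked sialic acid to N-glycans, where it can be read by sialic acid-binding lectins such as CD22.

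Total counts ran from 12616442 to 24214863 per library. The SR9009 library of mouse 1 had the lowest total and also the fewest genes with a count, 13298 against at least 16419 in the others, so fold changes of the 5 genes are also given without it. The summed level of 8 macrophage markers, Csf1r and Adgre1 among them, was 10254 to 10486 CPM with SR9009 and LPS, 10338 to 11259 CPM with LPS, 5403 to 8576 CPM with SR9009 and 6765 to 10677 CPM with DMSO (CPM, counts scaled to library size with TMM factors). The markers did not move together. With LPS, SR9009 and DMSO, Csf1r averaged 2101, 2610 and 4488 CPM, Cd14 2195, 350 and 556 CPM, and Fcgr1 1932, 83.9 and 280 CPM. Mertk and Lyz2 were the lowest, at 86.8 and 30.5 CPM over the 16 libraries. LPS acted in both settings, since Nos2, the inducible nitric oxide synthase gene, averaged 1406 CPM with SR9009 and LPS, 2684 CPM with LPS, 0.196 CPM with SR9009 and 0.580 CPM with DMSO. The clock gene Arntl did not pass the edgeR test for SR9009. Its log2 fold change was 0.33 against DMSO (SE 0.39, adjusted p = 0.775) and 0.55 with LPS in both groups (SE 0.39, adjusted p = 0.610). Action of SR9009 on REV-ERB was not tested. Some markers of other cell types moved with LPS: 5 endothelial markers summed to 103 to 198 CPM with SR9009 and LPS, 108 to 200 CPM with LPS, 9.20 to 70.0 CPM with SR9009 and 29.1 to 39.7 CPM with DMSO. Kdr made up most of that sum with LPS, averaging 138 CPM against 10.1 CPM with DMSO. Pecam1 averaged 7.83 CPM with LPS and 0.474 CPM with DMSO, Cdh5 4.42 and 0.453 CPM, and Tek 0.10 and 0.0166 CPM. Vwf went the other way, with 10.3 CPM with SR9009 and LPS, 4.70 CPM with LPS, 37.6 CPM with SR9009 and 23.6 CPM with DMSO. Of 7 fibroblast markers, which summed to 3.41 to 9.24 CPM with SR9009 and LPS, 6.74 to 15.9 CPM with LPS, 0.203 to 2.41 CPM with SR9009 and 1.07 to 2.91 CPM with DMSO, Pdgfrb gave most, and Col1a1 averaged 0.115 CPM or less in every group. The part of such cells in the results below was not tested.

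Promoter windows of RefSeq (build GRCm38.p6, which differs from the GRCm39 build of the counts; 250 bases before to 50 after a start) were held for 3 of the 5 genes, in 8 windows. Of these, 3 are shown, those with a match to the letters searched for PU.1, AP-1 or REV-ERB. They are the most upstream window of Rasgrp3 (chr17:75435655-75435954, plus strand), the most upstream window of Slco2b1 (chr7:99711291-99711590, minus strand) and the most downstream window of St6gal1 (chr16:23290220-23290519, plus strand), each 5′ to 3′ on the strand of its gene with matches in capitals.
Rasgrp3: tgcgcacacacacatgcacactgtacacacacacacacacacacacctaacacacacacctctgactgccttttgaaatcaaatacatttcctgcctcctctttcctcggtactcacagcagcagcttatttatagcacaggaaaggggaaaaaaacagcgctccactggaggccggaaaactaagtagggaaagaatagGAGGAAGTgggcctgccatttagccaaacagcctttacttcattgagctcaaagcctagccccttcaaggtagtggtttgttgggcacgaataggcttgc
Slco2b1: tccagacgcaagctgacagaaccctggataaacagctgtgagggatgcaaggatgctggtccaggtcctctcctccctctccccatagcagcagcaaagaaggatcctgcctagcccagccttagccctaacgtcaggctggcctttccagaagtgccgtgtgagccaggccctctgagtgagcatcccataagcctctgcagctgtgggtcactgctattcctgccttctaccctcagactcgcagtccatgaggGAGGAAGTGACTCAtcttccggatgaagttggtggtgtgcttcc
St6gal1: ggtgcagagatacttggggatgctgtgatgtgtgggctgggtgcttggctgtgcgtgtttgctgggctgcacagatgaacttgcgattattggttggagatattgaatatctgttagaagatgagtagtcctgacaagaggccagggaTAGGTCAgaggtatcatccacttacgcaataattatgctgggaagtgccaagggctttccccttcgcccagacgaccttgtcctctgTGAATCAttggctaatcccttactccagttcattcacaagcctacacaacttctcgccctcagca
GAGGAAGT, a sequence bound by the macrophage factor PU.1, lies at −50 to −43 in the Rasgrp3 window, where the start is position 1 and the base before it −1, and at 7 to 14 in the Slco2b1 window. There it shares its last base with a match to the AP-1 sequence TGANTCA at 14 to 20. The St6gal1 window holds another AP-1 match at −15 to −9 and TAGGTCA, the single-receptor site of REV-ERB and ROR, at −102 to −96. On either strand, GAGGAAGT is found in 3.20% of the 32851 windows of all genes, TGANTCA in 7.81% and TAGGTCA in 2.61%. Of the other motifs searched, the interferon-stimulated response element TTCNNTTTC (8.56% of windows) matched 1 of the 8 windows, the more downstream one of Rasgrp3, and the NF-kB sequence GGANTTTCC (1.25%) and the E-box CACGTG (7.15%) matched none. These matches are letters in a window and say nothing about binding in these cells. Cd28 and Gpr34 had no window in the table.

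Without LPS the 5 genes differed in level. Per length, in DMSO libraries, St6gal1 was the most abundant at 26.4 ± 2.60 FPKM (fragments per kilobase, scaled to library size; SD, n = 4), followed by Cd28 at 11.8 ± 1.79 FPKM, Gpr34 at 6.88 ± 3.85 FPKM, Rasgrp3 at 6.56 ± 2.01 FPKM and Slco2b1 at 3.43 ± 0.484 FPKM. Gpr34 and Rasgrp3 were closer to each other than their spread. With LPS alone St6gal1 was at 0.393 ± 0.172 FPKM and the other 4 genes averaged 0.0115 to 0.0688 FPKM, differences between them that lie within a few counts per library.

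**Figure D1:**
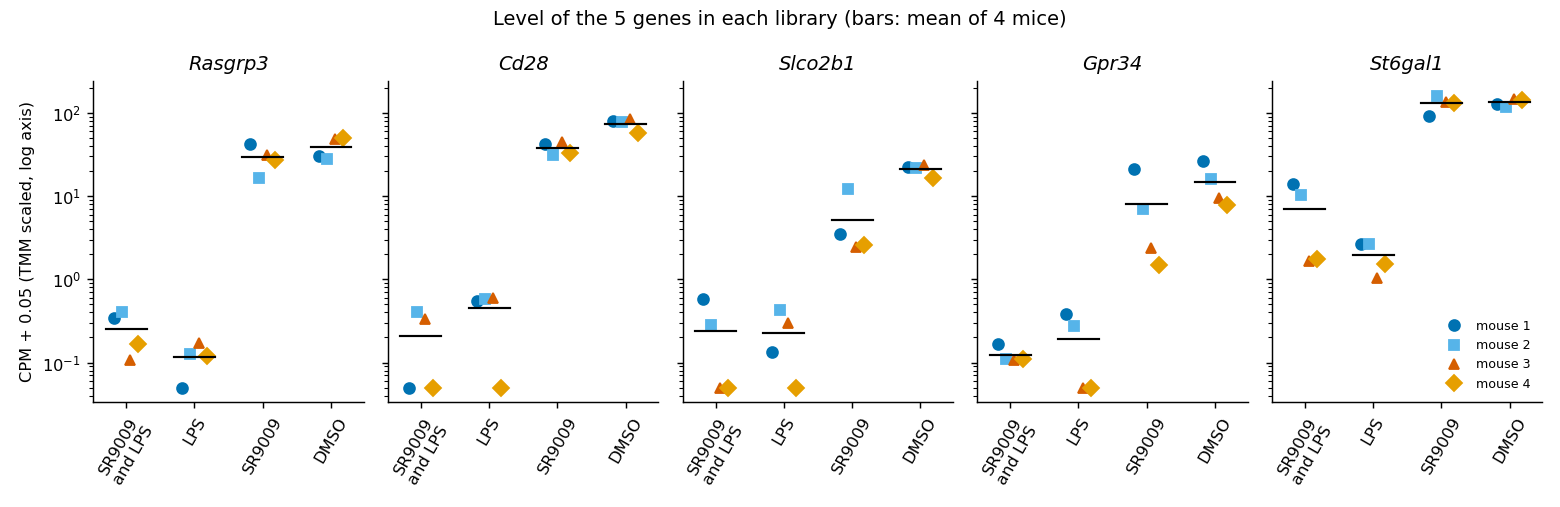
Level of each gene in the 16 libraries in CPM after TMM scaling, plus 0.05 so that zeros can be drawn on the log axis, with groups from left to right SR9009 and LPS, LPS, SR9009, DMSO; symbols are mice and bars are means of 4 mice. All 8 libraries with LPS lie below all 8 without it for every gene, and St6gal1 with SR9009 and LPS is spread from 1.60 to 14.0 CPM. The LPS and DMSO libraries among them chose the genes for such a gap, and the share of all tested genes with it was not computed.

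Ranked by fold change, 1772 protein-coding genes were called lower with LPS, averaged 5 CPM or more over LPS and DMSO libraries and were lower in 4 of 4 mice. Rasgrp3 had rank 1 and Cd28 rank 2, Slco2b1 rank 4, Gpr34 rank 5 and St6gal1 rank 7. Rank 3 was the chemokine receptor gene Cxcr4 (log2 −7.15), which the choice left out. Frat2, rank 6 at log2 −6.33 and with 10.7 CPM in DMSO libraries, is a gene of Wnt signalling that was not among the 5. Just outside, after St6gal1 at log2 −6.13, came Rnf144b (−6.04), Rnf150 (−5.91), Nectin1 (−5.88), Vipr1 (−5.76) and Tns1 (−5.63). Because LPS against DMSO chose the genes, their values in that comparison are a description with no test, and it is printed as background only that 20.4% of all tested genes were called lower and 19.4% higher in it (edgeR quasi-likelihood test, Benjamini-Hochberg adjusted p under 0.05).

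The same LPS treatment was also measured in other libraries from the same 4 mice: SR9009 and LPS against SR9009. The ranking did not use this comparison, but the genes were chosen with earlier results of these data known. The fit also shares its estimate of spread over all 16 libraries, and the SR9009 libraries were among those without LPS that met the filter. The p-values below are therefore not independent of the choice. All 5 genes fell there. Of all tested genes, 15.8% were called lower and 14.5% higher in this comparison, and the median log2 fold change of the 5 genes was −6.64 against −0.12 over all tested genes.

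Rasgrp3 (ENSMUSG00000071042, GRCm39 chromosome 17, 75742891 to 75836049, plus strand) had 0.294, 0.353, 0.0570 and 0.119 CPM in mice 1 to 4 with SR9009 and LPS, against 41.7, 16.4, 30.9 and 27.4 CPM with SR9009. These levels rest on 14 counts over the 4 libraries with SR9009 and LPS and on 2625 counts over those with SR9009. In log2 units it fell by 7.11 (SE 0.50, adjusted p = 1.24e-07). With LPS alone it had 0, 0.0762, 0.123 and 0.0713 CPM, against 29.9, 28.2, 49.1 and 50.3 CPM with DMSO, a log2 fold change of −8.99 that chose it. The 4 LPS libraries held 4 counts of the gene in all.

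Cd28 (ENSMUSG00000026012, chromosome 1, 60755959 to 60812518, plus strand) had 0, 0.353, 0.285 and 0 CPM with SR9009 and LPS, against 42.2, 31.0, 44.1 and 32.6 CPM with SR9009. It fell by 7.81 (SE 0.68, adjusted p = 6.52e-07). With LPS alone it had 0.499, 0.533, 0.555 and 0 CPM, against 79.3, 76.8, 84.1 and 57.4 CPM with DMSO (log2 −7.53). Because Cd28 is best known from T cells, their 10 markers were summed: 6.78 to 12.3 CPM with SR9009 and LPS, 7.83 to 12.3 CPM with LPS, 2.58 to 9.65 CPM with SR9009 and 5.83 to 10.2 CPM with DMSO. Most of that sum came from Cd4 and Lck. With SR9009 and LPS, LPS, SR9009 and DMSO, Cd4 averaged 3.86, 3.44, 5.08 and 6.83 CPM, and Lck 3.57, 4.46, 0.350 and 0.449 CPM. The T cell receptor complex genes Cd3d, Cd3e and Cd3g averaged 0.0136, 0.0248 and 0.0124 CPM over the 16 libraries. Cd28 averaged 74.4 ± 11.7 CPM in DMSO libraries (SD, n = 4). Cd247, also of that complex, averaged 0.569 CPM with SR9009 and LPS, 1.36 CPM with LPS, 0.0201 CPM with SR9009 and 0 CPM with DMSO. The part of T cells in the Cd28 values was not tested.

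Slco2b1 (ENSMUSG00000030737, chromosome 7, 99307011 to 99360547, minus strand) had 0.529, 0.236, 0 and 0 CPM with SR9009 and LPS, against 3.41, 12.0, 2.42 and 2.54 CPM with SR9009. It fell by 4.70 (SE 0.84, adjusted p = 0.000509). With LPS alone it had 0.0832, 0.381, 0.247 and 0 CPM, against 22.3, 21.8, 23.5 and 16.5 CPM with DMSO (log2 −6.82). The 4 libraries together held 13 counts with SR9009 and LPS and 10 with LPS alone.

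Gpr34 (ENSMUSG00000040229, chromosome X, 13498328 to 13507097, plus strand) had 0.118, 0.0589, 0.0570 and 0.0593 CPM with SR9009 and LPS, against 21.2, 6.94, 2.34 and 1.42 CPM with SR9009. It fell by 6.64 (SE 1.04, adjusted p = 0.000169). With LPS alone it had 0.333, 0.229, 0 and 0 CPM, against 26.1, 16.1, 9.33 and 7.73 CPM with DMSO (log2 −6.77). Without LPS, mouse 1 was highest and mouse 4 lowest in both settings. Gpr34 lies within Cask, a gene on the opposite strand, and the sources used here do not state whether counting used the strand. Cask averaged 54.4 CPM with SR9009 and LPS, 77.0 CPM with LPS, 43.9 CPM with SR9009 and 35.7 CPM with DMSO (log2 1.11 in LPS against DMSO, SE 0.30, adjusted p = 0.00849; 0.31 in SR9009 and LPS against SR9009, SE 0.30, adjusted p = 0.478).

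St6gal1 (ENSMUSG00000022885, chromosome 16, 23043490 to 23179100, plus strand) had 14.0, 10.3, 1.60 and 1.72 CPM with SR9009 and LPS, against 91.8, 161, 137 and 131 CPM with SR9009. It fell by 4.24 (SE 0.59, adjusted p = 5.79e-05). With LPS alone it had 2.58, 2.59, 0.986 and 1.5 CPM, against 128, 118, 145 and 143 CPM with DMSO (log2 −6.13). Of the 5 genes it alone kept more than 1 CPM in most libraries with LPS. St6gal1 and Rasgrp3 are also expressed in B cells, whose 7 markers summed to 1.48 to 4.58 CPM with SR9009 and LPS, 2.16 to 4.91 CPM with LPS, 3.28 to 6.64 CPM with SR9009 and 5.14 to 7.5 CPM with DMSO. Cd22 made up most of that sum, and Ms4a1 and Pax5 averaged 0.0202 and 0.0262 CPM over the 16 libraries. Cd79b, a B cell receptor gene, averaged 0.263 CPM with SR9009 and LPS, 0.413 CPM with LPS, 0.847 CPM with SR9009 and 1.32 CPM with DMSO, and Cd79a averaged 0.278 CPM or less in every group. The sum and Cd79b were thus lower with LPS, as the 5 genes were, and their part in the result was not tested. In such bulk libraries, fewer cells with a transcript and less of it per cell cannot be told apart.

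Without the SR9009 library of mouse 1, all 5 genes again fell in SR9009 and LPS against SR9009: the log2 fold change was −6.82 for Rasgrp3, −7.69 for Cd28, −4.79 for Slco2b1, −5.44 for Gpr34 and −4.30 for St6gal1 (adjusted p at most 0.000294).

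**Figure D2:**
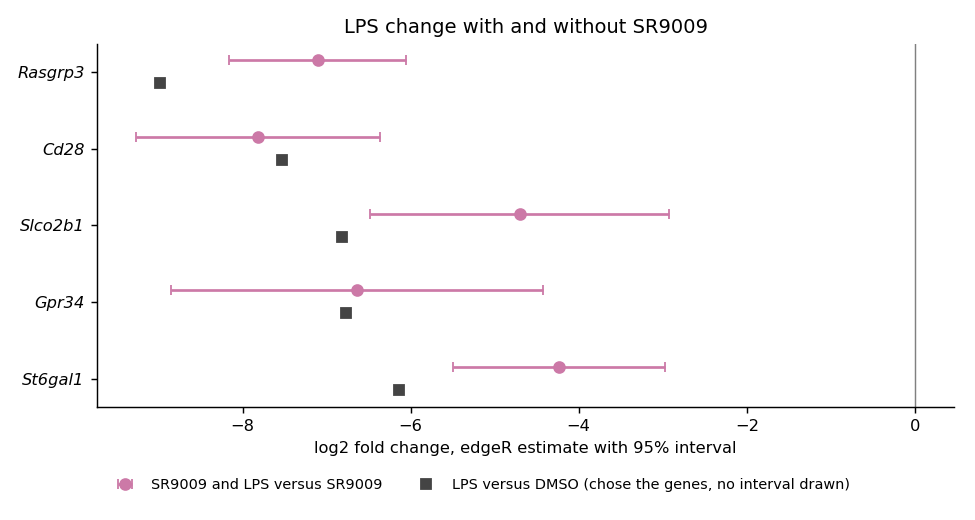
Log2 fold change of each gene with LPS, in SR9009-treated cells (circles, with the 95% interval of the edgeR fit) and without SR9009 (squares, the comparison that chose the genes, with no interval). All 5 circles lie left of 0, from −7.81 for Cd28 to −4.24 for St6gal1.

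The comparison of SR9009 with DMSO asked whether the agonist changed the level before LPS. Slco2b1 was the lowest relative to DMSO, at 24.3% of the DMSO level by the fitted fold change, followed by Cd28 at 50.4%, Gpr34 at 53.3% and Rasgrp3 at 73.9%, while St6gal1 was at 97.5%. None of the 5 passed the edgeR test over all genes. An unadjusted p under 0.05 was found for 2 of them, Slco2b1 and Cd28, and for 11.7% of all tested genes. DESeq2 called these 2, among 331 of the 13438 tested genes. The DMSO libraries here are also those that chose the genes for a high DMSO level. In the edgeR fit, 0.566% of all tested genes were called lower and 0.313% higher, and with mouse number as a factor the count of called genes was 198 in place of 118.

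Slco2b1 averaged 5.09 ± 4.62 CPM with SR9009 and 21.0 ± 3.08 CPM with DMSO (SD, n = 4 each), and it was lower with SR9009 in 4 of 4 mice, with no overlap between the groups. The log2 fold change was −2.04 (SE 0.66, 95% interval −3.43 to −0.65, adjusted p = 0.235), and −1.93 with the mouse 1 SR9009 library left out (adjusted p = 0.202). DESeq2 (−2.07, adjusted p = 0.0482), limma-voom (−2.36, adjusted p = 0.0251) and limma on log2(FPKM + 1) (−1.35, adjusted p = 0.00214) and on log2(FPKM + 0.1) (−2.21, adjusted p = 0.0109) called it. Of all 13438 tested genes, limma-voom called 102, limma on log2(FPKM + 1) 136 and on log2(FPKM + 0.1) 106. The share of the DMSO level was 15.3%, 55.1%, 10.3% and 15.4% in mice 1 to 4, so mouse 2 kept the most.

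Cd28 averaged 37.5 ± 6.65 CPM with SR9009 and 74.4 ± 11.7 CPM with DMSO (SD, n = 4 each), again lower in 4 of 4 mice with no overlap. The log2 fold change was −0.99 (SE 0.46, 95% interval −1.97 to −0.01, adjusted p = 0.426), and −1.10 with the mouse 1 SR9009 library left out (adjusted p = 0.275). DESeq2 (−1.0, adjusted p = 0.0274) and limma on log2(FPKM + 1) (−0.90, adjusted p = 0.00767) called it. The share of the DMSO level was even across mice, 53.2%, 40.4%, 52.5% and 56.7%. Groups without overlap and with SR9009 the lower one were found for 4.64% of all tested genes, and among the 5 for Slco2b1 and Cd28.

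Gpr34 averaged 7.97 ± 9.13 CPM with SR9009 and 14.8 ± 8.37 CPM with DMSO (SD, n = 4 each). The groups overlapped, because the mice differed widely in both. Within mice it was lower with SR9009 in 4 of 4, at 81.1%, 43.1%, 25% and 18.4% of the DMSO level. The log2 fold change was −0.91 (SE 0.70, 95% interval −2.39 to 0.58, adjusted p = 0.649), and −2.09 with the mouse 1 SR9009 library left out (adjusted p = 0.113). The latter fit kept the DMSO library of mouse 1, the highest of its group at 26.1 CPM, so the groups no longer held the same mice. With mouse number as a factor and all libraries kept, none of the 5 genes was called. With that factor and without the SR9009 library of mouse 1, a setting chosen after seeing the data, Gpr34 was at −1.88 and passed (adjusted p = 0.00431), as did Slco2b1 (−2.22, adjusted p = 0.0388). That setting called 586 of 13645 tested genes.

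Rasgrp3 averaged 29.1 ± 10.4 CPM with SR9009 and 39.4 ± 12.0 CPM with DMSO (SD, n = 4 each), with overlapping groups, higher with SR9009 in mouse 1 and lower in the other 3 mice. The log2 fold change was −0.44 (SE 0.35, 95% interval −1.17 to 0.30, adjusted p = 0.661), and −0.71 with the mouse 1 SR9009 library left out (adjusted p = 0.421). St6gal1 averaged 130.2 ± 28.8 CPM with SR9009 and 134 ± 12.8 CPM with DMSO (SD, n = 4 each), with a log2 fold change of −0.04 (SE 0.51, 95% interval −1.13 to 1.06, adjusted p = 0.981). Without the SR9009 library of mouse 1, the lowest of the SR9009 group at 91.8 CPM, it was 0.05 (adjusted p = 1.0).

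**Figure D3:**
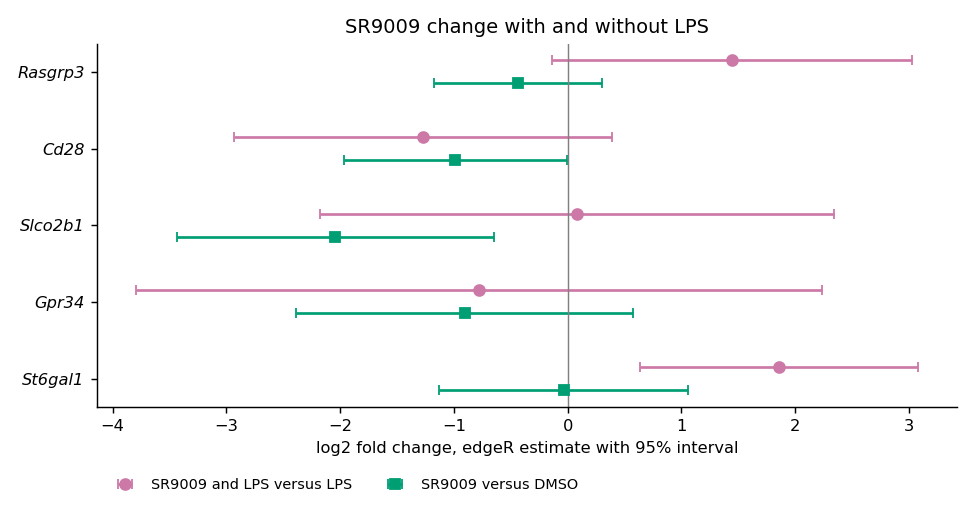
Log2 fold change of each gene with SR9009, in LPS-treated cells (circles) and without LPS (squares), with 95% intervals of the edgeR fit, unadjusted for the number of genes. The interval lies left of 0 for Slco2b1 and Cd28 without LPS and right of 0 for St6gal1 with LPS; none of the 10 values passed the test over all genes.

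SR9009 and LPS was set against LPS to ask whether the agonist changed what was left after LPS. St6gal1 had 470 counts over the 4 libraries with SR9009 and LPS and 102 over those with LPS, and the other 4 genes had 5 to 14 counts and 4 to 22 counts in these groups. None of the 5 passed the edgeR test, and 1 had an unadjusted p under 0.05 (St6gal1), as had 13.5% of all tested genes. DESeq2 called that 1, among 706 of the 13438 tested genes. In the edgeR fit, 1.06% of all tested genes were called higher and 0.737% lower, and with mouse number as a factor the count of called genes was 535 in place of 241. The LPS libraries here also chose the genes for a low LPS level.

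St6gal1 averaged 6.90 ± 6.24 CPM with SR9009 and LPS and 1.91 ± 0.803 CPM with LPS (SD, n = 4 each). It was higher with SR9009 and LPS in 4 of 4 mice, by 5.42, 3.98, 1.62 and 1.15 times in mice 1 to 4. The groups overlapped, since mice 3 and 4 with SR9009 and LPS lay within the range of the LPS group. Groups without overlap and with SR9009 and LPS the higher one were found for 6.66% of all tested genes and for none of the 5. The log2 fold change was 1.86 (SE 0.58, 95% interval 0.64 to 3.08, adjusted p = 0.125). DESeq2 gave 1.84 and called it (adjusted p = 0.0251), the fit without the SR9009 library of mouse 1 gave 1.91 (adjusted p = 0.0527), and the adjusted p of the other alternatives ran up to 0.583.

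For the 4 genes near 0 the counts set the limit. Rasgrp3 had 14 counts with SR9009 and LPS and 4 with LPS, which scaled to library size is a ratio of 2.83 (exact 95% interval 0.890 to 11.8, counting error only) and a fitted log2 fold change of 1.44 (SE 0.75, adjusted p = 0.425). Cd28 had 11 and 22 counts, a ratio of 0.405 (0.177 to 0.871), and a log2 fold change of −1.27 (SE 0.78, adjusted p = 0.526). For Slco2b1, with 13 and 10 counts, the ratio was 1.05 (0.426 to 2.68), and for Gpr34, with 5 and 7 counts, it was 0.578 (0.145 to 2.12). No difference between SR9009 and LPS and LPS was detectable for these genes beyond the spread between mice at this depth.

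The level after LPS can also be set against the level before it in the same mouse. St6gal1 kept 15.2%, 6.39%, 1.16% and 1.31% of its SR9009 level in mice 1 to 4 with SR9009 and LPS, against 2.01%, 2.20%, 0.681% and 1.05% of its DMSO level with LPS. Slco2b1 kept 15.5%, 1.97%, 0% and 0% with SR9009, against 0.373%, 1.75%, 1.05% and 0% without. Its value in mouse 1 is 9 counts against 49 in the low-depth SR9009 library, and the 4 libraries of each group together gave 3.57% (exact 95% interval 1.88 to 6.15) with SR9009, against 0.865% (0.414 to 1.59) without. With mouse 1 left out, a setting chosen after seeing the data, the share with SR9009 was 1.37% (0.373 to 3.54) for Slco2b1 and 3.16% (2.76 to 3.60) for St6gal1. The share without SR9009 was not recomputed in that setting. All these intervals cover counting error only and leave out the spread between mice. That of St6gal1 holds none of its values in mice 2 to 4 (6.39%, 1.16% and 1.31%). Rasgrp3 kept 0.184% to 2.15% with SR9009 and 0% to 0.270% without, Cd28 0% to 1.14% with and 0% to 0.694% without, and Gpr34 0.555% to 4.17% with and 0% to 1.42% without.

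**Figure D4:**
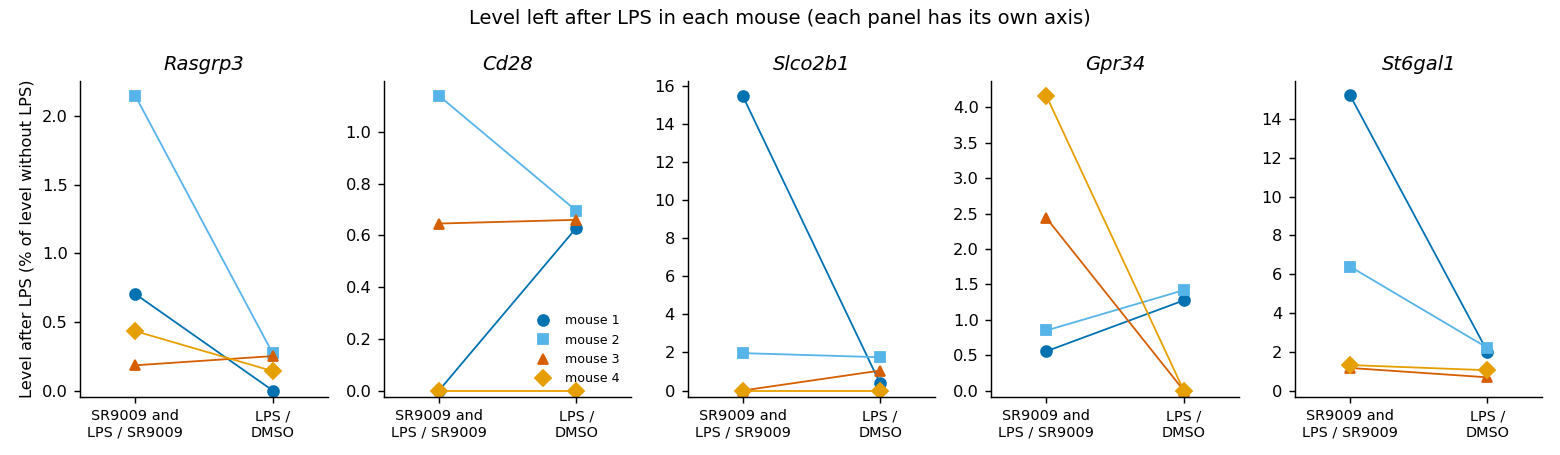
Level after LPS as a percentage of the level without LPS in the same mouse, for SR9009 and LPS over SR9009 (left) and LPS over DMSO (right), from TMM-scaled CPM; each panel has its own linear axis and lines join a mouse. St6gal1 is higher on the left in all 4 mice, and Slco2b1 in mouse 1 (15.5%) stands apart from the other 7 values of its panel.

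The difference between these LPS effects is the interaction, and one side of it is the comparison that chose the genes. It was 1.88 (SE 0.82) for Rasgrp3, 2.12 (SE 1.26) for Slco2b1, 1.90 (SE 0.77) for St6gal1, −0.28 (SE 0.84) for Cd28 and 0.13 (SE 2.67) for Gpr34 on the log2 scale, where a positive value is a smaller fall with SR9009. None of the 5 passed the edgeR test (adjusted p from 0.604 to 0.999) or DESeq2, and 2, Rasgrp3 and St6gal1, had an unadjusted p under 0.05, as had 7.14% of all tested genes. Without the SR9009 library of mouse 1 the values were 2.18 for Rasgrp3, 2.05 for Slco2b1, 1.86 for St6gal1, −0.15 for Cd28 and 1.35 for Gpr34, and none passed (adjusted p from 0.286 to 0.963). Limma on log2(FPKM + 1) called Slco2b1 (1.36, adjusted p = 0.0257), among 52 of the 13438 tested genes. In the edgeR fit, 0.0% of all tested genes were called higher and 0.00744% lower, which is 1 gene, and with mouse number as a factor 15 genes were called.

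Genes that work with the 5 did not all follow them. The lists below were written from general knowledge, but with earlier results of these data known, and leave out the 5 genes in their counts. They are read against the 15.8% lower and 14.5% higher among all tested genes in SR9009 and LPS against SR9009. Shares and medians of list genes, here and in the paragraphs that follow, are a description and no test of the lists. Without the SR9009 library of mouse 1 some counts moved by over 1.5 times, such as 7 GTPase activators that fell in place of 3. Of 13 tested Ras and Rap exchange factors other than Rasgrp3, 5 rose and 3 fell (median log2 −0.12, as over all tested genes). Rapgef2, an exchange factor for Rap, rose by 3.18 (SE 0.26, adjusted p = 4.26e-07), and Rasgef1b rose by 2.11 (SE 0.24, adjusted p = 7.01e-06). Rasgrp1, a relation of Rasgrp3 best known from T cells, averaged 26.9 CPM with SR9009 and LPS, 35.1 CPM with LPS, 0.391 CPM with SR9009 and 0.255 CPM with DMSO (log2 6.16 in SR9009 and LPS against SR9009, SE 0.69, adjusted p = 7.28e-06; 7.06 in LPS against DMSO, SE 0.72, adjusted p = 1.96e-06). It was high in the libraries in which Rasgrp3 was low. The others that rose were Rasgrf1 and Sos1, and Rapgef6, Sos2 and Rasgef1a fell. Rasgef1a fell by 3.22 (SE 0.33, adjusted p = 2.97e-06). Of 15 tested GTPase activators, which switch Ras and Rap off, 3 rose and 3 fell (median −0.52), and Sipa1l1, which acts on Rap, rose by 2.87 (SE 0.36, adjusted p = 2.22e-05), as did Rap1gap2 and Rasa4, while Rasa3 and Rasal2 were among those that fell. Of 16 tested genes of phospholipase C and diacylglycerol signalling, 3 rose and 3 fell (median −0.35), and Dgkh, which removes diacylglycerol, rose by 3.72 (SE 0.21, adjusted p = 1.88e-08), as did Plcb3 and Prkcd, while Prkch, Plcb2 and Plcg1 fell.

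Among 9 tested relations and ligands of CD28, 3 rose and 2 fell (median 0.04). Cd274, which encodes the inhibitory ligand PD-L1, rose by 3.27 (SE 0.45, adjusted p = 5.11e-05), Icosl, the ligand of the CD28 relation ICOS, rose by 1.94 (SE 0.34, adjusted p = 0.000445), and Tnfrsf14 was the other that rose. Vsir fell by 1.07 (SE 0.30, adjusted p = 0.0140), and Icos, the other that fell, was at 0.699 CPM or less in every group mean. Cd86, a ligand of CD28 itself, was not called in SR9009 and LPS against SR9009 (log2 0.04, SE 0.58, adjusted p = 0.968). It rose in LPS against DMSO (log2 2.09, SE 0.60, adjusted p = 0.0110). Its means were 35.0 ± 10.4 CPM with SR9009 and LPS and 71.1 ± 8.26 CPM with LPS (SD). Without LPS they were 34.1 ± 37.3 CPM with SR9009 and 16.8 ± 8.13 CPM with DMSO, so the SR9009 mean is uncertain. Cd80, which encodes the other ligand, was not called in SR9009 and LPS against SR9009 (log2 −0.64, SE 0.30, adjusted p = 0.120). Nor was it called in LPS against DMSO (log2 −0.47, SE 0.30, adjusted p = 0.236). Of the 3 tested transporters related to Slco2b1, Slco3a1 rose by 5.99 (SE 0.46, adjusted p = 2.47e-07) and Slco4a1 fell by 2.77 (SE 0.94, adjusted p = 0.0354) (median of the 3, −2.01). Slco3a1 averaged 376 CPM with SR9009 and LPS, 702 CPM with LPS, 5.86 CPM with SR9009 and 16.0 CPM with DMSO. Of 10 tested P2Y-like receptors and enzymes of lysophosphatidylserine besides Gpr34, 1 rose and 1 fell (median −0.17). The ADP receptor gene P2ry1 fell by 3.34 (SE 0.45, adjusted p = 3.73e-05). Pla1a, a phospholipase that makes lysophosphatidylserine, averaged 1.49 CPM with SR9009 and LPS and had no count with SR9009 (adjusted p = 0.000190).

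Among 11 tested sialyltransferases besides St6gal1, 5 rose and 1 fell (median 1.41, −0.12 over all tested genes). All 5 that rose encode enzymes that link sialic acid to galactose in the α2,3 position: St3gal5 by 2.54 (SE 0.30, adjusted p = 1.17e-05), St3gal1 by 1.75 (SE 0.27, adjusted p = 0.000141), St3gal4 by 1.41 (SE 0.24, adjusted p = 0.000320), and St3gal3 and St3gal6. St8sia4, which makes polysialic acid, fell by 3.49 (SE 0.46, adjusted p = 3.37e-05). Of 11 tested genes that supply or remove sialic acid, none rose and 5 fell (median −1.02). Cmah, which converts N-acetyl- to N-glycolylneuraminic acid, fell by 5.54 (SE 0.67, adjusted p = 1.57e-05), and Slc17a5, the lysosomal sialic acid exporter, fell by 2.36 (SE 0.27, adjusted p = 1.02e-05). Slc35a1, which carries CMP-sialic acid into the Golgi, fell by 1.70 (SE 0.40, adjusted p = 0.00429), Cmas, which makes CMP-sialic acid, fell by 1.02 (SE 0.16, adjusted p = 0.000189), and Gne was the other that fell. Of 6 tested sialic acid-binding Siglecs, 1 rose and 1 fell (median 0.51): Siglece rose by 2.55 (SE 0.30, adjusted p = 1.16e-05) and Cd33 fell by 0.94 (SE 0.33, adjusted p = 0.0403).

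A list of genes of resident macrophages and microglia, which holds Gpr34 and Slco2b1, had 18 other tested genes, of which none rose and 6 fell (median −0.99). Cd163, a haemoglobin scavenger receptor, fell by 2.49 (SE 0.22, adjusted p = 6.76e-07) and Tgfbr1, a receptor of TGFβ, fell by 3.39 (SE 0.56, adjusted p = 0.000286), and Mef2a, Gas6 and Mrc1 were among the others. In LPS against DMSO, 8 of the 18 fell and 1 rose. With SR9009 against DMSO, 2 of the 110 list genes outside the 5 were called (1.82%), and 18 (16.4%) had an unadjusted p under 0.05, against 11.7% of all tested genes. The 2 called were Cx3cr1, the fractalkine receptor gene, which fell by 1.86 (SE 0.38, adjusted p = 0.0308), and St3gal6, which fell by 1.55 (SE 0.32, adjusted p = 0.0322). With SR9009 and LPS against LPS, 5 of the 110 were called (4.55%), and 28 (25.5%) had an unadjusted p under 0.05, against 13.5% of all tested genes. Of the 5, Plcg1 rose by 1.49 (SE 0.30, adjusted p = 0.0177), Prkcb rose by 1.01 (SE 0.22, adjusted p = 0.0299), Rapgef2 fell by 1.14 (SE 0.25, adjusted p = 0.0272), St3gal6 fell by 1.65 (SE 0.31, adjusted p = 0.0133) and Maf fell by 1.16 (SE 0.28, adjusted p = 0.0414).

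**Figure D5:**
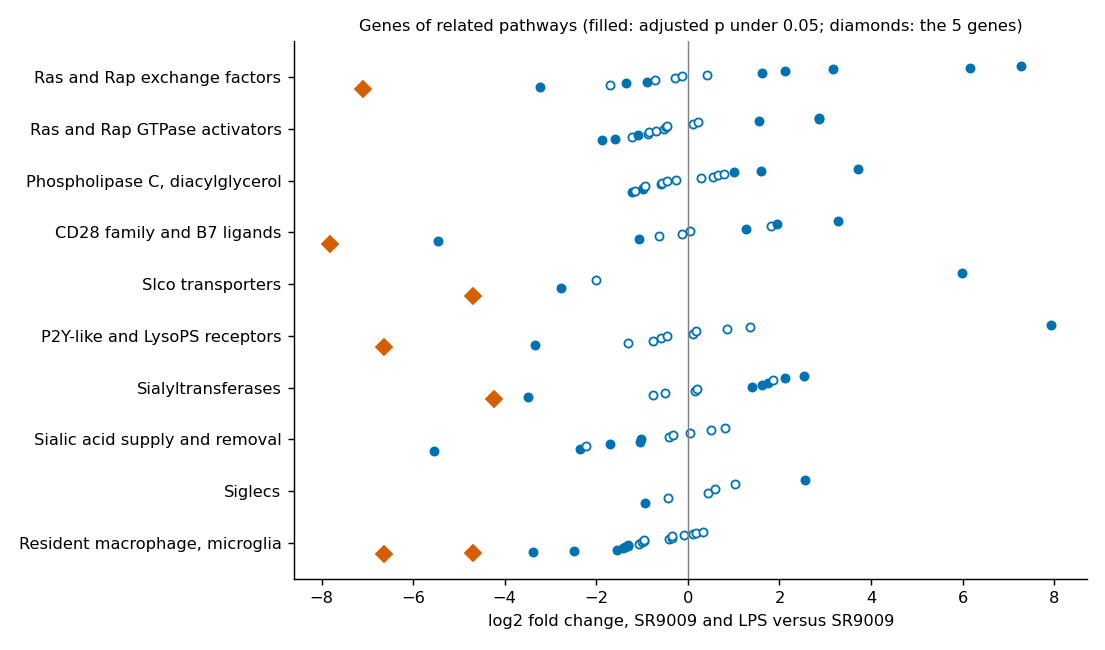
Log2 fold change in SR9009 and LPS against SR9009 of the tested genes of 10 lists, filled where the adjusted p is under 0.05; diamonds are the 5 genes, and the vertical line is no change. Sialic acid supply and the resident macrophage list have filled points only left of the line, and the sialyltransferases have 5 filled points to its right; the leftmost circle of the CD28 family (Icos) and the rightmost of the P2Y-like list (Pla1a) had no count in one group, so their place depends on the fit.

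Over the 16 libraries the 5 genes ran together, with Pearson r of log2(CPM + 0.5) from 0.859 (Gpr34 and St6gal1) to 0.984 (Rasgrp3 and Cd28), which includes the LPS difference that chose them. Over the 8 libraries without LPS, from 2 groups and the same mice, r was 0.745 for Cd28 and Slco2b1, 0.618 for Slco2b1 and Gpr34, 0.595 for Cd28 and Gpr34, 0.521 for Rasgrp3 and Cd28, 0.322 for Slco2b1 and St6gal1, 0.205 for Rasgrp3 and Gpr34, 0.121 for Rasgrp3 and Slco2b1, −0.067 for Cd28 and St6gal1, −0.309 for Rasgrp3 and St6gal1 and −0.441 for Gpr34 and St6gal1. Of 9395 genes compared, those most like Rasgrp3 over the 16 libraries were Cxcr4 (r = 0.990), Cd28 (0.984) and Eps8 (0.981). Those most like Cd28 were Rasgrp3 (0.984), Mex3b (0.983) and the cannabinoid receptor gene Cnr2 (0.982). For Gpr34 they were Gpr65 (0.975), which encodes a proton-sensing receptor, Hpgd (0.963), which encodes an enzyme that inactivates prostaglandins, and Clec7a (0.962), the gene of the β-glucan receptor Dectin-1. For St6gal1 they were Arl4c (0.994), Tbc1d4 (0.988) and Galnt12 (0.986), which adds the first sugar of O-glycans.

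The genes most like Slco2b1 were Kcnj10 (r = 0.978), Bmf (0.958) and Dapp1 (0.957). Kcnj10, a potassium channel gene, averaged 6.19 CPM with SR9009 and LPS, 7.91 CPM with LPS, 32.7 CPM with SR9009 and 93.8 CPM with DMSO. It was called lower with SR9009 against DMSO (log2 −1.52, adjusted p = 0.0119), the only one of the genes named for likeness to be so. Because the genes were named for following Slco2b1 in the same libraries, that value describes the likeness and does not support the SR9009 difference of Slco2b1.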

How the data were processed

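RNA from bone marrow-derived macrophages of 4 mice was sequenced in 16 poly(A) libraries, 4 per group, per the labels' protocols. The submitters' processing notes name HISAT2 and GRCm39 (mm39). Versions, the counting tool, its use of strand and the annotation were not given in the sources used here. Per the file headers, the deposited table holds raw counts per gene and the deposited FPKM values are per gene length, scaled to library size by the authors.

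Counts were analysed with R 4.3.3 and edgeR 4.0.16. Of 56748 genes, 13438 passed filterByExpr (minimum count 10, minimum total 15). TMM factors ran from 0.738 to 1.26. A robust quasi-likelihood model with 1 mean per group over 16 libraries gave 5 contrasts, Benjamini-Hochberg adjusted over all tested genes with a threshold of 0.05. CPM used TMM-scaled library sizes. SE was taken as the size of a log2 fold change over √F. Ratios of summed counts have exact 95% intervals for counting error only. Fits were tested on simulated data. FPKM served for levels between genes and as an alternative unit. DESeq2 1.42.0 and limma 3.58.1 were alternatives, as were other scalings and filters, compared groups alone, each mouse left out, and mouse number as a factor. The labels tie numbers to mice, but the reported fit did not use this pairing. Deviations from group means across genes had r from 0.0604 to 0.623 (median 0.287) in 24 same-mouse pairs of libraries. In 72 pairs from different mice, r ran from −0.648 to 0.596 (median −0.0835).

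The 5 genes, the lists and the alternatives were chosen with earlier results of these data known. Other genes named are the left-out chemokine receptor gene and the 5 genes ranked after St6gal1, the 3 most alike per gene (mean of 5 CPM or more), and up to 4 called genes of each of the 10 lists by smallest p. Frat2, Cask, Arntl and further list genes were named after their values were seen. Tables and figures were made in Python 3.11.15 with matplotlib 3.10.9.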

Additional observations from a re-analysis of the deposited data

Results flagged for a closer look

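In 3 of 20 groups of 4 libraries (5 genes in 4 groups), 1 library stood apart from the other 3 by a test of its gap over the group's range. For normally distributed values chance gives this in about 1 of 20 groups. That rate does not hold for a few counts per library, as for Cd28 and Gpr34 below, so the flags cannot be set against it. Slco2b1 with SR9009 had 12.0 CPM in mouse 2 and 2.42 to 3.41 CPM in the other mice. Cd28 with LPS had 0.0 CPM in mouse 4 and 0.499 to 0.555 CPM in the others. Gpr34 with SR9009 and LPS had 0.118 CPM in mouse 1, which is 2 counts, and 1 count in each of the others.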

How the results depend on the processing

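The fall of all 5 genes in SR9009 and LPS against SR9009 passed in each of 16 alternatives, and the replicate block alone changed no call of the 5 in any comparison (Slco2b1 with SR9009 against DMSO, −2.39, adjusted p = 0.0636). For SR9009 against DMSO, alternatives that called a gene were DESeq2 (Cd28 −1.0, Slco2b1 −2.07), limma-voom (Slco2b1 −2.36), limma on log2(FPKM + 1) (Cd28 −0.90, Slco2b1 −1.35) and on log2(FPKM + 0.1) (Slco2b1 −2.21), and the replicate block without the SR9009 library of mouse 1 (Slco2b1 −2.22, Gpr34 −1.88). St6gal1 turned to 0.053 without that library and 0.17 with the block added, and ran from −0.21 to 0.053 over the settings that left out a library or mouse. For SR9009 and LPS against LPS, DESeq2 called St6gal1 (1.84), and Slco2b1 turned to −0.52 with limma-voom and −0.0026 with log2(FPKM + 0.1) and ran from −1.32 to 0.71 over the left-out mice. For the interaction, limma on log2(FPKM + 1) called Slco2b1 (1.36), Cd28 turned to 0.85 and 0.62 with pseudocounts of 1 and 0.1 and ran from −0.91 to 0.34 over the left-out mice, and Gpr34 turned to −0.049 with DESeq2 and ran from −0.38 to 1.46; the cause was not tested. Fitting the compared groups alone gave no value for 4 of the genes in SR9009 and LPS against LPS, as too few counts remained, and that fit was not made for the interaction. Genes called over all settings ran from 3506 to 8847 for LPS against DMSO (5352 in the reported fit), 2113 to 6845 for SR9009 and LPS against SR9009 (4070), 1 to 586 for SR9009 against DMSO (118), 5 to 2900 for SR9009 and LPS against LPS (241) and 0 to 271 for the interaction (1). Leaving out a mouse gave 1 (mouse 4), 18 (mouse 3), 9 (mouse 2) or 194 (mouse 1) calls for SR9009 against DMSO and 5, 9, 26 or 963 for SR9009 and LPS against LPS, and leaving out the SR9009 library of mouse 1 gave 242 and 1566. With upper-quartile scaling the median over all genes in LPS against DMSO was −0.28 in place of −0.08 (log2), with 2126 genes higher and 3459 lower in place of 2611 and 2741. Of 1580 counts of list genes recomputed, 215 moved by over 1.5 times. With 4 to 22 counts per group after LPS for 4 of the genes, depth limits what could be seen there.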
